A study of Rattus norvegicus with 21 samples.

Results

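The genes described here are 10 genes of bile acid synthesis and its feedback control in rat liver: Cyp7a1, Cyp8b1, Cyp27a1, Cyp7b1, Akr1d1, Acox2, Slc27a5, Baat, Nr1h4 and Nr0b2. They were taken from a list by gene symbol with no threshold on any value, although the list was drawn up with earlier results of these data known. All 10 had a probe set, and together they hold 11 of the 31042 probe sets tested on each array, or 10 of 14217 genes represented. Akr1d1 had 2 probe sets and was described by the brighter one. The samples were livers of male Harlan Sprague-Dawley rats dosed by oral gavage with tert-butylphenyl diphenyl phosphate (BPDP), an aryl phosphate that serves as flame retardant and plasticiser, in corn oil. Rats received 4 daily doses and were killed on day 5. There were 6 arrays of rats given corn oil alone (0 mg/kg, the vehicle group) and 3 arrays at each of 64.6, 129.2, 258.1, 516.2 and 1032.5 mg/kg, so every group shared the gavage and the oil. Neither the rats' age nor the hour of collection was given in the labels. The protocol counts 5 rats in the vehicle group against 6 arrays, so that p-values measure the spread between arrays, which may in part be technical.

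Hepatocytes convert cholesterol to bile acids by a classic route that opens with Cyp7a1, the rate-limiting 7 alpha-hydroxylase, and an alternative route that opens with Cyp27a1 and passes through Cyp7b1. Cyp8b1 adds the hydroxyl group that leads to cholic acid, Akr1d1 reduces the steroid ring, and Acox2 starts the shortening of the side chain in the peroxisome. Slc27a5 joins free bile acids to coenzyme A, and Baat joins the activated acids to taurine or glycine. Bile acids restrain their own synthesis through the receptor FXR, encoded by Nr1h4, which induces Nr0b2, the gene of the repressor SHP. SHP is known to lower transcription of Cyp7a1 and Cyp8b1.

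On the arrays Nr0b2 was higher than in the vehicle group in every dosed liver, while Cyp7a1 and Cyp8b1 were not lower: their means lay above the vehicle mean at each of the 5 doses, although neither passed the test at any single dose. Slc27a5 was lower from 258.1 mg/kg upwards. The 5'-flanking sequences of Nr0b2, Slc27a5 and Cyp8b1, the genes on which these results turn, are given as the 250 bases before the RefSeq start of transcription in assembly GRCr8, read along the strand of the gene. Capitals mark a CACGTG E-box, the motif bound by CLOCK and BMAL1, found in Nr0b2 at positions -193 to -188 from the start.
Nr0b2 (chr5:151062910-151063159, plus strand): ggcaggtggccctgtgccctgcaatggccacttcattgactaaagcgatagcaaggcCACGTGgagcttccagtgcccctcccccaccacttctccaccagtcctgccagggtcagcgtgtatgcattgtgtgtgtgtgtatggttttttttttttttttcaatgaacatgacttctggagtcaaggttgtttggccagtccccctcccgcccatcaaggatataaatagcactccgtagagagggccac
Slc27a5 (chr1:82699336-82699585, minus strand): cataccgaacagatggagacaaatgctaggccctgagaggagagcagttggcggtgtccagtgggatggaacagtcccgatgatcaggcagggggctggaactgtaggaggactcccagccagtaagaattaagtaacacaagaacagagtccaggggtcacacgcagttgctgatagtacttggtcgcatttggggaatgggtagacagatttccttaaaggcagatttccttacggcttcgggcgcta
Cyp8b1 (chr8:130457593-130457842, minus strand): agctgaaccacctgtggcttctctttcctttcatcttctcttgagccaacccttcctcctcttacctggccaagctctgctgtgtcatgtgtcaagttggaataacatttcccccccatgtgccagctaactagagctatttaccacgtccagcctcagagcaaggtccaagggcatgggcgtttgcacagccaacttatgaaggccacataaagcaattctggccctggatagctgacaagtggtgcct

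RefSeq promoter sequences matched 6 of the 10 genes, namely the 3 shown and those of Baat, Cyp27a1 and Acox2. Among these 6, CACGTG occurred in Nr0b2 alone, against 5.59% of the 33469 promoters searched. AAGGTCA, a form of the core of the site bound by LRH-1 and related receptors, was searched on both strands. It occurred in Cyp27a1 alone, against 3.99% of all promoters. Only these exact letters were searched, so variant sites in the other promoters would not be found. TTATGNAA, a form of the D-box bound by DBP and NFIL3, occurred in none of the 6, against 3.28%. These are matches of letters within 250 bases and describe the sequences only.

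Nr0b2 differed more from the vehicle than any other of the 10 genes at every dose but 129.2 mg/kg, where Cyp7a1 differed more. In the 6 vehicle arrays its log2 signal had a lowest value of 7.73, a median of 8.62 (mean 8.64 ± 0.64, SD, n = 6) and a highest value of 9.35. The 3 arrays read 10.67, 10.36 and 10.11 at 64.6 mg/kg, 10.25, 9.85 and 9.57 at 129.2 mg/kg and 10.92, 9.88 and 9.53 at 258.1 mg/kg. At 516.2 mg/kg they read 10.17, 10.28 and 10.15, and at 1032.5 mg/kg 10.92, 10.72 and 9.97. All 15 dosed arrays lay above all 6 vehicle arrays, as they did for 0.319% of all probe sets. Nr0b2 rose 3.34-fold at 64.6 mg/kg (log2 change 1.74, SE 0.32, adjusted p = 0.0171), 2.77-fold at 258.1 mg/kg (1.47, SE 0.32, adjusted p = 0.0164), 2.94-fold at 516.2 mg/kg (1.56, SE 0.32, adjusted p = 0.00628) and 3.72-fold at 1032.5 mg/kg (1.90, SE 0.32, adjusted p = 0.000746). At 129.2 mg/kg its level was 2.38-fold above the vehicle and did not pass (log2 change 1.25, SE 0.32, adjusted p = 0.133).

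The Nr0b2 difference was present at the lowest dose and did not grow measurably with dose. Among the 15 dosed arrays its slope was 0.06 log2 units per dose step (SE 0.07, adjusted p = 0.734), and 1032.5 mg/kg exceeded 64.6 mg/kg by 0.16 (95% interval -0.62 to 0.93). The slope over all 21 arrays, 0.32 per step (SE 0.07, adjusted p = 0.00390, where 10.5% of all probe sets passed), therefore includes the step from vehicle to the lowest dose. With no slope among the doses, the compound and anything else that set the vehicle animals apart from all dosed animals cannot be told apart. The 64.6 mg/kg call was lost without any 1 of its arrays (adjusted p = 0.142, 0.0943 and 0.0596 without replicates 1, 2 and 3), and the 258.1 mg/kg call without its replicate 1 (adjusted p = 0.165). Both were also lost with only the vehicle and that dose in the fit (adjusted p = 0.0628 and 0.0877).

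**Figure D1:**
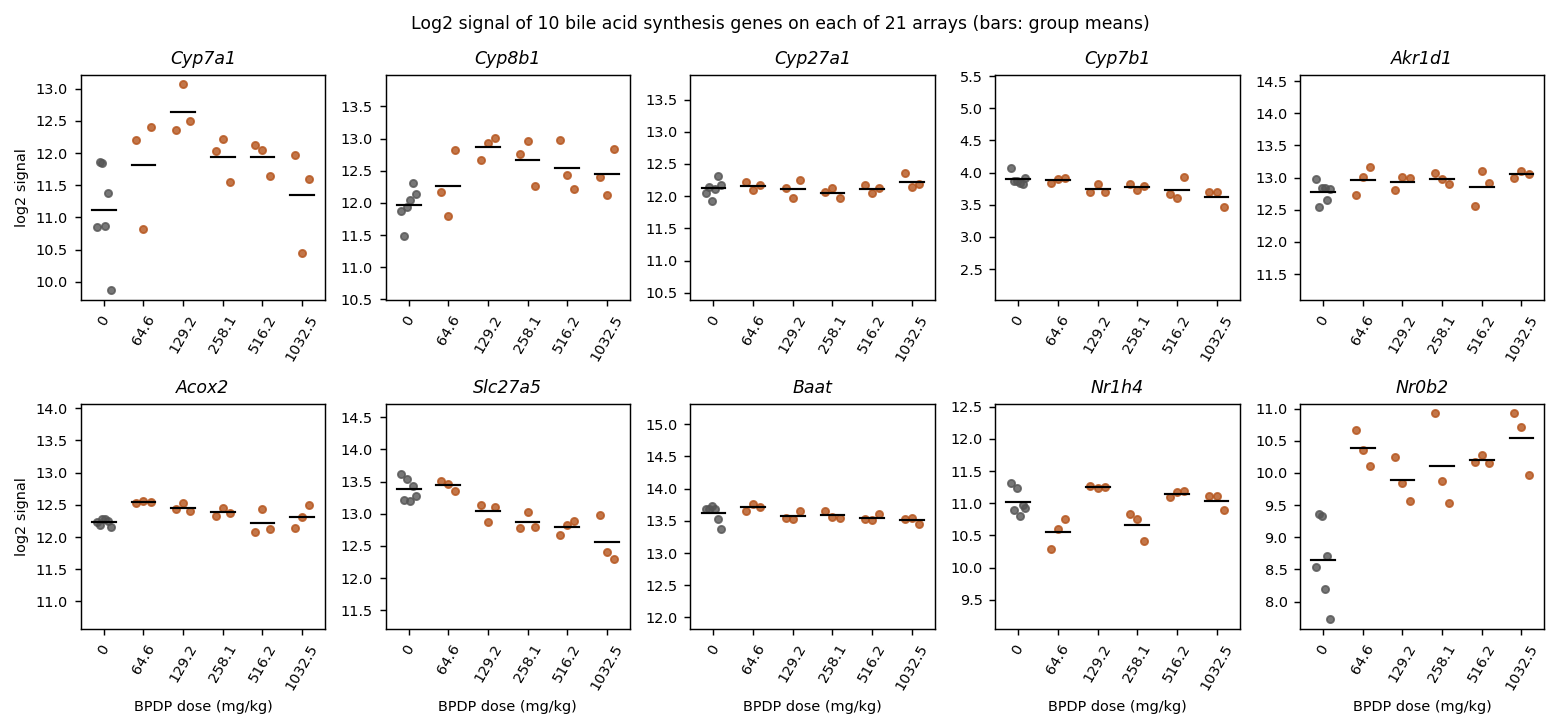
Log2 signal of each of the 10 genes on every array (vertical axis, each panel spanning the same number of log2 units about its own centre) against dose in mg/kg (horizontal axis, one position per group). Points are arrays and bars are group means: Nr0b2 steps up between the vehicle and 64.6 mg/kg, Slc27a5 descends from 129.2 mg/kg on, and Cyp27a1 and Baat stay within a narrow band.

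Nr1h4, the bile acid receptor that induces Nr0b2, moved unevenly over the doses. In the vehicle arrays it ranged from 10.80 to 11.31 with a median of 10.95. It read 10.28, 10.61 and 10.76 at 64.6 mg/kg, 11.27, 11.24 and 11.25 at 129.2 mg/kg and 10.84, 10.75 and 10.41 at 258.1 mg/kg. The 3 arrays at 64.6 mg/kg lay below all vehicle arrays, whereas those at 129.2 mg/kg lay within their range. At 516.2 and 1032.5 mg/kg the 6 arrays ranged from 10.90 to 11.19, inside the vehicle range. No single dose passed (log2 changes -0.47, 0.23, -0.35, 0.13 and 0.02 in order of dose, SE 0.12, smallest adjusted p = 0.127), but the moderated F over the 5 doses did (adjusted p = 0.0112), as for 4.62% of all probe sets. The step from 64.6 to 129.2 mg/kg was 0.70 and missed the threshold (adjusted p = 0.423), in a comparison added after the data were seen in which no probe set passed. At 64.6 mg/kg, where Nr1h4 had its lowest mean, Nr0b2 was already 3.34-fold above the vehicle. The relation of Nr0b2 to Nr1h4 was not tested.

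Cyp7a1 had the widest spread of the 10 genes between vehicle arrays (mean 11.11 ± 0.75, SD, n = 6). The vehicle arrays had a lowest value of 9.87, a median of 11.12 and a highest value of 11.86. The arrays read 12.20, 10.82 and 12.40 at 64.6 mg/kg, 12.35, 13.07 and 12.49 at 129.2 mg/kg, 12.03, 12.21 and 11.55 at 258.1 mg/kg, 12.12, 12.05 and 11.64 at 516.2 mg/kg, and 11.97, 10.45 and 11.60 at 1032.5 mg/kg. Of the 15 dosed arrays 10 lay above all vehicle arrays and none lay below them, and the 129.2 mg/kg group did not overlap the vehicle. Its log2 changes were 0.70, 1.53, 0.82, 0.83 and 0.23 in order of dose (SE 0.40), with adjusted p = 0.714, 0.147, 0.406, 0.241 and 0.844. The difference at 129.2 mg/kg passed in 1 of 20 alternatives, with arrays weighted by quality (adjusted p = 0.00157), and reached adjusted p = 0.534 in another. At the top dose the 95% interval ran from -0.60 to 1.06, which covers the changes seen at the 3 middle doses except that at 129.2 mg/kg.

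Cyp8b1 was shifted in the same direction with a smaller spread. Its vehicle arrays had a lowest value of 11.48, a median of 11.99 and a highest value of 12.31. The 3 arrays read 12.17, 11.79 and 12.82 at 64.6 mg/kg, 12.67, 12.93 and 13.01 at 129.2 mg/kg, 12.76, 12.96 and 12.26 at 258.1 mg/kg, 12.98, 12.44 and 12.22 at 516.2 mg/kg, and 12.40, 12.13 and 12.84 at 1032.5 mg/kg. Again 10 of 15 dosed arrays lay above all vehicle arrays and only the 129.2 mg/kg group did so in full. No dose passed against the vehicle (log2 changes 0.30, 0.91, 0.70, 0.58 and 0.49, SE 0.22, adjusted p = 0.805, 0.102, 0.116, 0.127 and 0.233). The 129.2 mg/kg difference passed with only those 9 arrays in the fit (adjusted p = 0.0406) and with array weights (adjusted p = 0.00169), 2 of 20 alternatives whose adjusted p ran up to 0.349. That at 258.1 mg/kg passed with array weights alone (adjusted p = 0.0448), 1 of 20 alternatives whose adjusted p ran up to 0.360.

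A comparison of the mean of the 5 doses with the vehicle, added after the data were seen, used all 15 dosed arrays at once. In it Cyp8b1 rose 1.51-fold (log2 change 0.60, SE 0.15, adjusted p = 0.0203), Nr0b2 rose 2.99-fold (1.58, SE 0.22, adjusted p = 0.000112) and Slc27a5 fell 1.36-fold (adjusted p = 0.00356). These were 3 of the 10 genes, against 5.7% of all probe sets. Cyp7a1 was 1.77-fold higher and missed the threshold (log2 change 0.82, SE 0.27, adjusted p = 0.0865). The repressor gene and its known target Cyp8b1 were thus both higher in dosed livers than in vehicle livers.

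Cyp27a1, the mitochondrial sterol 27-hydroxylase of the alternative route, kept close to its vehicle level. It ranged from 11.93 to 12.32 in the vehicle arrays and from 11.97 to 12.35 in the 15 dosed arrays. Its mean differed from the vehicle by at most 0.11 on the log2 scale at any dose (SE 0.08), with no dose past the threshold, and the mean of all doses differed by 0.01 (95% interval -0.11 to 0.13).

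Cyp7b1, the oxysterol 7 alpha-hydroxylase, gave a dim signal throughout, with a mean of 3.79 that exceeded only 5.75% of probe sets. The vehicle arrays ranged from 3.82 to 4.08 and the arrays at 1032.5 mg/kg read 3.70, 3.70 and 3.47, below all vehicle arrays. The fall at 1032.5 mg/kg passed (log2 change -0.28, SE 0.08, adjusted p = 0.0458), but 14 of 19 alternatives lost it, with an adjusted p as high as 0.253. No fold is given because signals at this level lie below the lower quartile of every array, where the scale is compressed.

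Akr1d1, the 5 beta-reductase of the steroid ring, was bright, and 10 of its 15 dosed arrays lay above all vehicle arrays. Its vehicle arrays ranged from 12.54 to 12.97, and the 3 arrays at 1032.5 mg/kg, at 13.00, 13.11 and 13.06, lay just above them. The difference there was 0.28 (SE 0.11, adjusted p = 0.180) and did not pass. Its dimmer probe set gave 0.29 at that dose (SE 0.18, adjusted p = 0.441), with 3 of 15 dosed arrays above all vehicle arrays. The mean of the 5 doses lay 0.18 above the vehicle on the brighter probe set and did not pass (adjusted p = 0.208).

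Acox2, the branched-chain acyl-CoA oxidase of the side chain, had its highest group mean at the lowest dose. Its vehicle arrays ranged from 12.16 to 12.28. It read 12.52, 12.56 and 12.55 at 64.6 mg/kg, 12.44, 12.52 and 12.40 at 129.2 mg/kg and 12.32, 12.45 and 12.38 at 258.1 mg/kg. All 9 of these arrays lay above the vehicle range, whereas the 516.2 mg/kg arrays, at 12.08, 12.43 and 12.12, straddled it, as did those at 1032.5 mg/kg, at 12.13, 12.31 and 12.50. The difference of 0.31 at 64.6 mg/kg did not pass (SE 0.08, adjusted p = 0.153), nor did that at any higher dose.

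Slc27a5, the liver bile acid-CoA ligase, was the only one of the 10 genes whose slope on dose passed among the dosed arrays. Its vehicle arrays had a lowest value of 13.20, a median of 13.35 (mean 13.38 ± 0.17, SD, n = 6) and a highest value of 13.62. At 64.6 mg/kg it read 13.51, 13.47 and 13.35, inside the vehicle range. It read 13.14, 12.87 and 13.10 at 129.2 mg/kg, 12.78, 13.04 and 12.79 at 258.1 mg/kg, 12.67, 12.83 and 12.89 at 516.2 mg/kg, and 12.98, 12.40 and 12.30 at 1032.5 mg/kg. All 12 arrays from 129.2 mg/kg upwards lay below all vehicle arrays. It fell 1.43-fold at 258.1 mg/kg (adjusted p = 0.0373), by 0.58 on the log2 scale at 516.2 mg/kg (adjusted p = 0.00998) and 1.76-fold at 1032.5 mg/kg (log2 change -0.82, SE 0.13, adjusted p = 0.000357). At 129.2 mg/kg the change of -0.34 did not pass (SE 0.13, adjusted p = 0.489).

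Slc27a5 declined among the dosed livers alone. Its slope over the 15 dosed arrays was -0.20 log2 units per dose step (SE 0.03, adjusted p = 0.00262), and 2.28% of all probe sets passed that test. Its level at 1032.5 mg/kg was 0.88 log2 units under that at 64.6 mg/kg (difference -0.88, 95% interval -1.19 to -0.57, adjusted p = 0.00261), in a comparison where 1.48% of probe sets passed and no other of the 10 genes did. The fall at 258.1 mg/kg was lost without replicate 1 or 3 of that dose or without vehicle replicate 1, 3 or 5 (adjusted p from 0.0653 to 0.187), and that at 516.2 mg/kg without its replicate 1 (adjusted p = 0.0805).

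Baat, which conjugates the activated acid to taurine or glycine and so acts on the product of Slc27a5, passed at no dose. It ranged from 13.37 to 13.74 in the vehicle arrays and from 13.46 to 13.77 in the dosed arrays. Its change at 1032.5 mg/kg was -0.11 (SE 0.08). The difference between the changes of the 2 genes was not tested.

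Counted over the 10 genes, 1 passed at 64.6 mg/kg, none at 129.2 mg/kg, 2 at 258.1 mg/kg, 2 at 516.2 mg/kg and 3 at 1032.5 mg/kg. Over all probe sets 0.248%, 0.348%, 2.35%, 6.02% and 6.15% passed at these doses. Nr0b2 accounted for the call at 64.6 mg/kg, Nr0b2 and Slc27a5 for those at 258.1 and 516.2 mg/kg, and Cyp7b1 joined them at the top dose. At 129.2 mg/kg the count by limma at an unadjusted p under 0.05 was 5, against 7.25% of all probe sets, and array weights called 5, against 6.86%. The same genes made up both counts: Cyp7a1, Cyp8b1, Acox2, Slc27a5 and Nr0b2. The arrays of a dose lay wholly outside the vehicle range for 3, 5, 4, 2 and 4 of the 10 genes in order of dose, against 4.71%, 4.18%, 6.85%, 10.7% and 10.7% of all probe sets. The median log2 change of the 10 genes was 0.14, 0.19, 0.06, 0.04 and 0.10 in order of dose, with genes moving both ways, while the median over all genes rounded to between -0.01 and 0.01 at every dose.

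**Figure D2:**
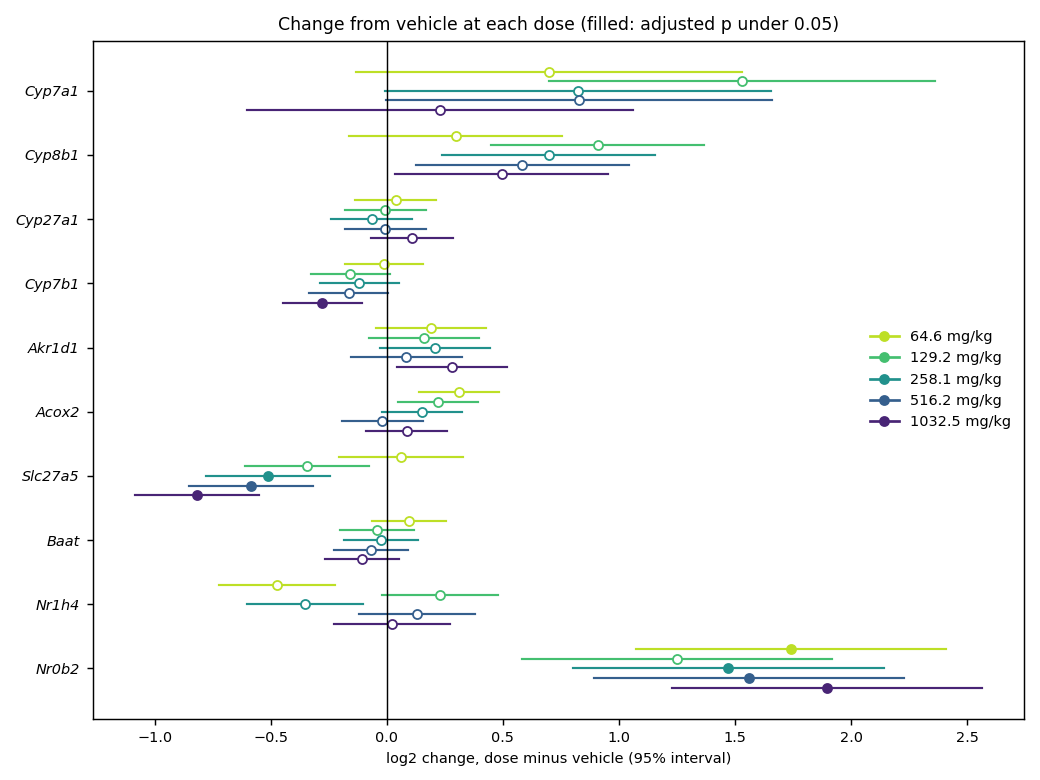
Log2 change from the vehicle mean (horizontal axis) for each of the 10 genes at the 5 doses, with 95% intervals from the fit. Filled points passed the adjusted threshold of 0.05: Nr0b2 lies to the right at all doses, and Slc27a5 moves left with dose to -0.82.

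Nr0b2 and Cyp7a1 ran together across the vehicle arrays. The vehicle replicate lowest in Nr0b2, at 7.73, was also lowest in Cyp7a1, at 9.87, and the highest in Nr0b2, at 9.35, was highest in Cyp7a1, at 11.86. Pearson's r over the 6 vehicle arrays was 0.970 (two-sided exact permutation p = 0.00417, adjusted p = 0.0167 over the 4 hydroxylases compared with Nr0b2), and Spearman's rho was 0.943 (exact permutation p = 0.0167, adjusted p = 0.0667). Without the 2 arrays farthest from the median of Nr0b2 the r over the remaining 4 was 0.939 (exact permutation p = 0.0833). Vehicle replicate 6, which was lowest in both genes, also stood apart over all probe sets, with a mean correlation of 0.989 to its group against about 0.993 for the other vehicle arrays.

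Over all 21 arrays, the comparison first planned, none of the 4 hydroxylases passed (Cyp7a1 had the smallest permutation adjusted p = 0.0902), nor did any after each value was set against its group mean (Cyp7a1 r = 0.484, permutation adjusted p = 0.104). Vehicle and dosed arrays formed separate clusters in Nr0b2, so the dosed arrays were also taken on their own, a choice made after the data were seen. Across the 15 dosed arrays r with Cyp7a1 was -0.308 (permutation p = 0.267, adjusted p = 0.355) and rho was -0.371 (permutation p = 0.174). With Cyp8b1 r was -0.397 (permutation p = 0.144, adjusted p = 0.355) and rho was -0.539 (permutation p = 0.0411, adjusted p = 0.165), and r was -0.551 without the 2 farthest arrays. None of the 4 hydroxylases passed among the dosed arrays after adjustment. Whether the relation with Cyp7a1 differed between vehicle and dosed arrays was not tested.

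**Figure D3:**
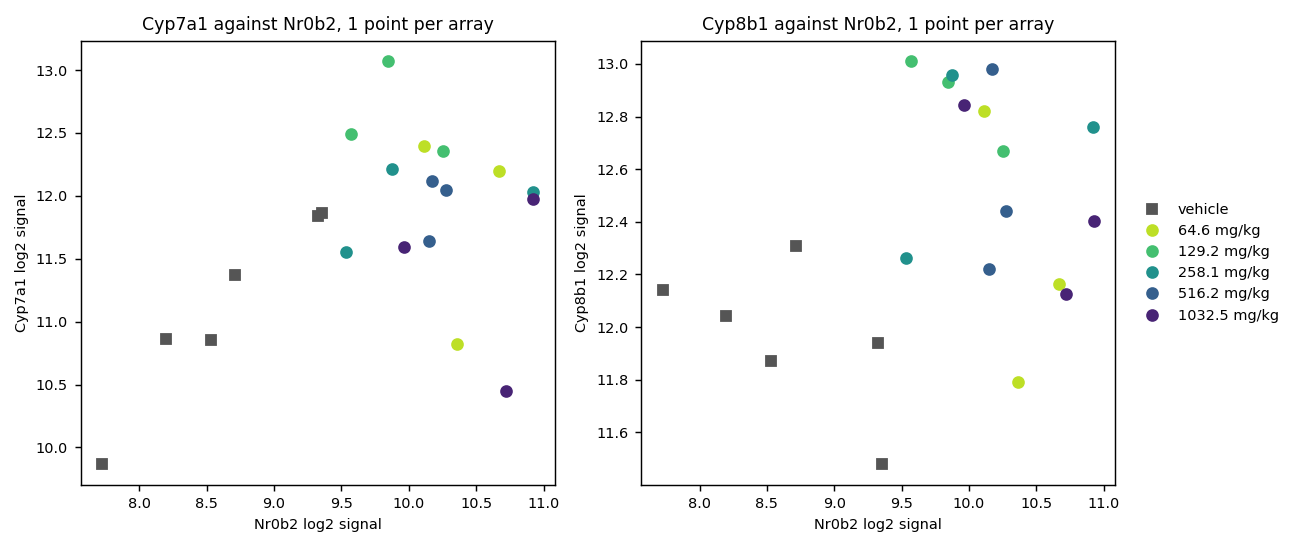
Log2 signal of Cyp7a1 (left, vertical axis) and Cyp8b1 (right, vertical axis) against the log2 signal of Nr0b2 (horizontal axis), 1 point per array, squares for the vehicle and circles coloured by dose. The 6 vehicle arrays form a rising line in the left panel (r = 0.970), and all 15 dosed arrays lie to the right of them.

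The genes whose pattern over the 21 arrays was most like that of Nr0b2 were Echdc3 (r = 0.87), Sfxn1 (r = 0.86) and Abcc2 (r = 0.86), and those most like Cyp7a1 were Mad1l1 (r = 0.80), Adamts7 (r = 0.80) and Scaper (r = 0.79). These correlations were ranked over 14217 genes on the same arrays and dose groups, and they are given as a description.

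Over all probe sets 3.3% rose and 2.85% fell at 1032.5 mg/kg. Of 15 measured other enzymes of bile acid synthesis, 6 rose and none fell at that dose, and the median log2 change was 0.20 against -0.01 over all genes. Higher were Acot12 (1.78-fold, adjusted p = 0.00205) and Acot8 (1.64-fold, adjusted p = 0.000202), both acyl-CoA thioesterases. Hsd17b4, which acts after Acox2 in the shortening of the side chain, rose 1.39-fold (adjusted p = 0.00179), and Slc27a2, a further acyl-CoA synthetase, rose 1.38-fold (adjusted p = 0.000364). Akr1c14, the 3 alpha-hydroxysteroid dehydrogenase that works beside Akr1d1, rose 1.34-fold (adjusted p = 0.0211), a call lost without replicate 1 or 2 of that dose (adjusted p = 0.125 and 0.126). Abcd3, the peroxisomal importer, had a log2 change of 0.46 (adjusted p = 0.0166), also lost without replicate 1 or 2 (adjusted p = 0.0521 and 0.0880). None of the 15 passed at 64.6 or 129.2 mg/kg, while 4 rose at 258.1 mg/kg and 2 at 516.2 mg/kg. Of all 31042 probe sets, 42, 69, 423 and 1247 rose at these doses in order. Hsd3b7, the next enzyme after Cyp7a1, differed by -0.22 at the top dose and did not pass (adjusted p = 0.280). Cyp39a1, Cyp46a1, Ch25h, Amacr, Scp2, Hsd17b10, Sult2a1 and Sult2a2 did not pass there either.

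Transport genes split by direction. Of 14 measured, 3 rose and 3 fell at 1032.5 mg/kg, with a median log2 change of -0.21. Abcc3, which exports bile acid conjugates to the blood, went from a vehicle mean of 6.93 through 7.50, 8.45, 9.26 and 9.75 to 10.10, or 8.98-fold higher at the top dose (adjusted p = 3.3e-07). Abcc4, a second basolateral exporter, rose 1.83-fold (adjusted p = 0.00340), and Abcc2, an exporter of the canalicular membrane, rose with a log2 change of 0.58 (adjusted p = 0.00993, lost without replicate 1 or 2 of that dose at 0.0965 and 0.0864). Abcg8, a subunit of the sterol exporter into bile, fell 2.70-fold (adjusted p = 0.000868). Abcb4, the phospholipid floppase, fell 1.60-fold (adjusted p = 0.00621, and 0.0690 without replicate 3). Slco1a1, an uptake carrier, fell 1.23-fold (adjusted p = 0.0266), a call lost without replicate 2 or 3 of the dose or vehicle replicate 1 (adjusted p = 0.168, 0.0565 and 0.0526). The main bile salt exporter Abcb11, a known FXR target, and the uptake carrier Slc10a1, which SHP is known to repress, did not pass (log2 changes -0.21 and -0.02, adjusted p = 0.227 and 0.953).

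Among 16 measured receptors, co-regulators and signals that act on Cyp7a1, only Fgfr4 passed against the vehicle, from 258.1 mg/kg on, a share close to that of all probe sets at 516.2 and 1032.5 mg/kg (6.02% and 6.15%). Fgfr4, the hepatocyte receptor for the intestinal hormone that represses Cyp7a1, had log2 changes of -0.05, -0.09, -0.45, -0.46 and -0.60 in order of dose and was 1.52-fold lower at 1032.5 mg/kg (adjusted p = 0.000313). Nr5a2 (LRH-1), Hnf4a and Nr1h3 (LXR alpha), which are known to act on Cyp7a1, differed by 0.32, -0.09 and 0.04 at the top dose and did not pass (adjusted p = 0.152, 0.786 and 0.930).

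**Figure D4:**
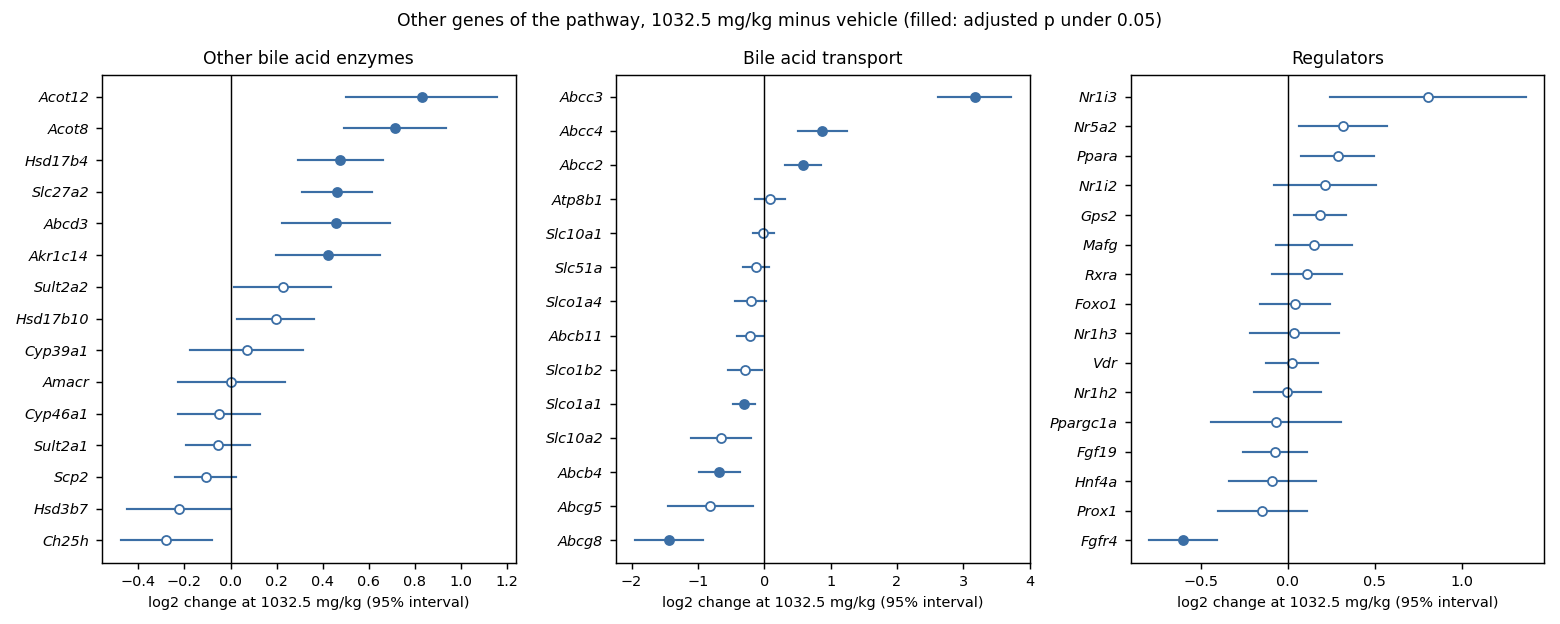
Log2 change at 1032.5 mg/kg from the vehicle mean with its 95% interval (horizontal axis) for other enzymes, transport genes and regulators of the pathway, 1 row per gene. Filled points passed the adjusted threshold: Abcc3 leads the transport genes at 3.17, and Fgfr4 is the filled point among the regulators at -0.60.

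Genes of the circadian clock with a known link to Cyp7a1 or Nr0b2 were taken as a list chosen with their changes known. Of 11 measured, 5 rose and 2 fell at 64.6 mg/kg, where 0.135% and 0.113% of all probe sets did, and 7 rose and 3 fell at 1032.5 mg/kg, of which the fall of Clock was lost in 13 of 18 alternatives. Dbp, a known activator of Cyp7a1, read from 5.44 to 6.10 in the vehicle arrays and from 9.61 to 10.94 in the 15 dosed arrays, with no overlap and at 19.1-fold to 27.6-fold by dose. Nr1d1, which encodes REV-ERB alpha, was 4.32-fold to 7.02-fold higher, and Nfil3, a repressor at the sites used by Dbp, was 3.35-fold to 3.76-fold lower over the doses. Bmal1, whose protein binds the E-box motif marked in Nr0b2, read from 8.08 to 8.84 in the vehicle arrays. It read from 5.44 to 7.36 in the dosed arrays and was 6.74-fold lower at 1032.5 mg/kg (adjusted p = 9.6e-07). Like Nr0b2, Dbp, Nr1d1 and Nfil3 differed from the vehicle at the lowest dose. The part of the clock genes in the Nr0b2 and Cyp8b1 results was not tested.

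Of 7 defining hepatocyte genes none passed at any dose, and their mean log2 signal was 13.72 to 13.90 in the vehicle arrays and 13.80 to 13.89 at 1032.5 mg/kg. The arrays of a dose lay below all vehicle arrays for 3 of the 7 at 258.1 mg/kg, 3 at 516.2 mg/kg and 2 at 1032.5 mg/kg. Among all 31042 probe sets they did so for 904, 1457 and 1651 at these doses, a smaller share. The slope of Cps1 over 21 arrays was -0.04 per step (adjusted p = 0.0203). Stellate cell and fibroblast markers were lower at the higher doses, where 2 of 6 fell at 258.1 mg/kg, 4 at 516.2 mg/kg and 3 at 1032.5 mg/kg, against 0.992%, 2% and 2.85% of all probe sets, and their mean went from 8.25 to 8.73 in the vehicle arrays to 7.92 to 8.0 at the top dose. Of 5 Kupffer cell markers 2 fell at 1032.5 mg/kg (mean 9.10 to 9.72 in the vehicle arrays, 8.59 to 9.04 at that dose), and Epcam alone of 5 cholangiocyte markers rose from 258.1 mg/kg on. Of 4 endothelial markers 1 fell, at 516.2 mg/kg, and no lymphocyte, neutrophil or enterocyte marker passed at any dose. Among the neutrophil markers, S100a8 reached 7.39 in the vehicle arrays against a median of 4.92 there, and S100a9 9.29 against 6.81. Their highest dosed values were 4.86 and 6.87, and the wide vehicle spread limits these tests. The part of the marker shifts in the Slc27a5 result was not tested, and in bulk liver fewer cells of a type and less RNA per cell cannot be told apart. The 5' minus 3' difference of the control transcripts, an index of RNA integrity, ran from -2.40 to -1.68 in the vehicle arrays and from -3.10 to -1.28 in the dosed arrays. Every Nr0b2 and Slc27a5 call remained with it as a covariate. The lowest index, -3.10, was that of replicate 1 at 258.1 mg/kg. Without that array the limma calls of Nr0b2 and Slc27a5 at that dose were lost (adjusted p = 0.165 and 0.187). Array medians lay between 6.30 and 6.39, and arrays correlated at 0.984 to 0.995 over all probe sets.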

How the data were processed

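Rat liver RNA was hybridised to 21 Affymetrix arrays after amplification from 100 ng of total RNA, per the labels' protocols. The authors deposited a log2 signal for each probe set on each array. They had summarised it with RMA, as the submitters' processing notes state, and which software ran it is not given there. RMA removes background and equalises the arrays' distributions, so a change shared by most genes would not show, and dim signals are compressed. The values were used as deposited. Arrays carry no read depth, and their number limits the precision.

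Groups follow the dose in the labels. After 57 array controls were left out, 31042 probe sets were fitted with limma 3.58.1 (lmFit, eBayes) in R 4.3.3, with all 21 arrays sharing the spread, and the Benjamini-Hochberg adjustment covered all of them in each comparison (threshold 0.05). Every dose was compared with the vehicle, and slopes were fitted on the dose step. Comparisons of each dose with the dose below were added after the data were seen, and no probe set passed in any of them. "Rose", "fell" and "passed" refer to this threshold. Probe sets were named from the platform annotation, updated to RefSeq symbols of GRCr8; 20826 named 1 gene, 436 several and 9780 none. A gene was represented by its brightest probe set. The relations of Nr0b2 with the 4 hydroxylases used permutation tests, exact for 6 arrays and with 100000 resamples otherwise. Where arrays of several dose groups were used, they were shuffled without regard to dose, so those p-values are approximate. Two-sided tests were used throughout, and the fit was checked on simulated data.

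The members and gene lists were chosen with earlier results of these data known. Named were all members, the 3 genes most like Nr0b2 and Cyp7a1 in pattern, and some of the list genes that passed at 1032.5 mg/kg or have a textbook role in the feedback. In the clock list Tef, Hlf, Nr1d2, Per1 and Klf15 also rose at that dose, and Bmal1 fell. A further list held peroxisomal genes near Acox2, of which 2 of 5 measured rose there, Ehhadh (3.88-fold) and Pex7 (1.48-fold). Slc51b and Klb, also listed, are not analysed here. Alternatives were other scalings, filters, variance settings, covariates and arrays left out. The other probe set of Akr1d1 was also tried, which repeats the main fit for the other members but counts among their alternatives. No pairing by replicate number is stated. Over 45 pairs of same-numbered arrays, deviations from the group means correlated between -0.28 and 0.39, and 13 exceeded 0.1. The median was 0.005, against -0.008 for pairs with different numbers. Whether some same-numbered arrays shared a batch was not tested.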

Additional observations from a re-analysis of the deposited data

Results flagged for a closer look

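Of 38 probe sets examined over the 6 vehicle arrays, 3 held an array far from the rest by Dixon's ratio of gap to range, and chance marks about 1 in 20. None was one of the 10 bile acid genes. Clock was high in vehicle replicate 2, at 9.37 against 9.25 for the nearest array (gap over range 0.668). Nr1h3 was low in vehicle replicate 6, at 10.34 against 10.71 (0.660). Slco1a1 was low in vehicle replicate 2, at 10.23 against 10.35 (0.657).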

How the results depend on the processing

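Nr0b2 at 516.2 and 1032.5 mg/kg and Slc27a5 at 1032.5 mg/kg passed in all 20 alternatives run for them. Not all of these could have failed: the other probe set of Akr1d1 left their fits unchanged, and their folds already exceeded 1.5. Over the 20 alternatives, the Nr0b2 change at 1032.5 mg/kg ran from 1.47 to 2.18 and that of Slc27a5 from -1.03 to -0.69. The number of the 10 genes called moved as follows. At 64.6 mg/kg it went from 1 to 0 in a fit of the vehicle and that dose alone, and ranged from 0 to 1 as arrays were left out in turn. At 129.2 mg/kg it went from 0 to 1 in such a fit and to 5 with array weights, and stayed at 0 as arrays were left out. At 258.1 mg/kg it went from 2 to 1 in such a fit, with array medians subtracted or with a fold of at least 1.5. It went to 3 with array weights, and ranged from 0 to 2 as arrays were left out. At 516.2 mg/kg it was 1 with a fold of at least 1.5 and 1 to 2 as arrays were left out, and at 1032.5 mg/kg 2 to 3. The slope called 3 genes over 21 arrays, and 1 both among the 15 dosed arrays and on log2 dose. Of the relations of Nr0b2 with the 4 hydroxylases, 0 passed over all 21 arrays and 1 among the vehicle arrays. Causes of these moves were not tested.

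With the replicate number as a block (replicate block), the count went to 0 at 64.6 mg/kg, 0 at 258.1 mg/kg, 2 at 1032.5 mg/kg and 4 for the slope, where Baat was added. The numbers mark no stated pairing. Among the 10 genes the values lost were Nr0b2 at 64.6 and 258.1 mg/kg (adjusted p = 0.135 and 0.0644), Slc27a5 at 258.1 mg/kg (adjusted p = 0.0505) and Cyp7b1 at 1032.5 mg/kg (adjusted p = 0.104). Of the other pathway genes at 1032.5 mg/kg, Abcd3, Abcb4, Abcc2, Slco1a1, Clock and Per1 were lost (adjusted p from 0.0505 to 0.134) and Nr1i3 was gained (adjusted p = 0.0122). Cyclic loess and median subtraction gave a median difference between 1032.5 mg/kg and vehicle of -0.0013 and 0.0156 log2 units over all probe sets.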
